A study of Homo sapiens with 44 samples.

Results

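The genes described here encode the receptors of the 10 cytokines that were added to colon fibroblasts, together with receptors of related cytokines. They are 35 genes, and every peak that the deposited table named for one of them was taken, which gave 1032 of 407383 peaks. Of these, 1031 passed the filter on low coverage, out of 407176 peaks tested. The genes held between 1 tested peak (IL2RG) and 181 (TGFBR2). Most of the tested peaks lay in introns (601) or in distal sequence (319), and 53 were of the promoter class and 58 of the exonic class by the table.

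A cytokine acts on a cell only through its own receptor. IL-1β is bound by IL1R1 with the accessory chain IL1RAP, while IL1R2 is a decoy without signalling, and TNF is bound by TNFRSF1A and TNFRSF1B. TGF-β1 is bound by the serine/threonine kinases TGFBR2 and TGFBR1 with the co-receptors TGFBR3 and ENG. The receptors of IL-6 (IL6R with IL6ST, also called gp130), OSM (OSMR or LIFR with IL6ST), IL-13 (IL13RA1 with IL4R, and the decoy-like IL13RA2), IL-22 (IL22RA1 with IL10RB, and the soluble IL22RA2) and the interferons (IFNAR1 with IFNAR2, and IFNGR1 with IFNGR2) signal through JAK kinases and STAT factors. IL-17A is bound by IL17RA with IL17RC. Fibroblasts of the gut are known to carry many of these receptors.

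The study profiled open chromatin by ATAC-seq, in which a transposase inserts sequencing adaptors into accessible DNA, in Ccd18-Co, a single human colon fibroblast line. The 44 libraries formed 11 groups of 4. They were unstimulated cells and cells given IL-1β at 0.1 ng/ml, or 10 ng/ml of OSM, TNF, TGF-β1, IFNγ, IFNα, IL-22, IL-13, IL-17A or IL-6. The IL-1β dose is that of the labels, and the sources differ on it. All stimulation was in serum-free medium, and the study's methods give a serum-free starvation before it and a day of cytokine. Whether the 4 replicates were separate cultures is not stated, so the p-values measure the spread between these libraries, which may be technical. Summed coverage over all peaks was between 148.8 and 823.1 Mb per library (median 416.0). Values are given as coverage per Mb, the coverage of a 500-base peak per Mb of the library's total after a factor for composition. All peaks have the same length, so length does not enter comparisons of levels between genes. Other differences between peaks, such as GC content, were not corrected for in these levels. Counting error alone limits the low values. If a read covers 75 bases, 3 reads correspond to 0.274 to 1.52 coverage per Mb depending on the library. Changes are log2 differences from unstimulated on the log2(coverage per Mb + 0.5) scale, tested with limma over all tested peaks, and a peak is called at a Benjamini-Hochberg adjusted p under 0.05. The pseudocount understates the change of low peaks.

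Markers of fibroblasts were open in unstimulated cells. All 10 (among them COL1A2 at 38.7 and DCN at 4.57) had a peak within 1 kb of a start site that stood above the median of promoter-class peaks (2.91). Of the 5 epithelial markers only EPCAM had such a peak (0.511), and among leukocyte markers CD14 had one (4.63). The other epithelial markers (CDH1, KRT20, VIL1, CDX2) had none, and neither had the leukocyte markers PTPRC, CD3E and SPI1. The library labelled IL-6 replicate 4 was the shallowest and stood apart at receptor peaks. At the 22 receptor peaks called for IL-13, it reached the range of the IL-13 libraries at 6 of 9 raised and 9 of 13 lowered peaks. The other IL-6 libraries did so at 1 to 2 raised and 3 to 5 lowered peaks. In the library labelled replicate 4, 27.1% of all peaks held 0, against 2.78% to 9.38% in the other IL-6 libraries. Its level of 3 reads was 1.52 coverage per Mb. At lowered peaks, likeness to IL-13 and low depth therefore cannot be told apart. At a distal IL17RA peak the library labelled IL-6 replicate 4 held 23.9 coverage per Mb, the other IL-6 libraries 7.36 to 8.33 and the IL-13 libraries 18.2 to 21.8. IL-6 results at single receptor peaks and the IL-6 count of called receptor peaks are therefore given with and without it.

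For each cytokine that called receptor peaks, the centre of the peak with the largest change under the naming rule is shown, since these regions carry the results that follow. For largest changes the rule took only peaks whose treated libraries all lay on one side of all unstimulated ones. A lack of overlap at such peaks is thus part of the choice and not a result. Each is 200 bases of the plus strand of hg38 from the center of the peak. Capitals mark matches, on either strand, to one of 6 searched motifs: GAS (TTCNNNGAA), STAT6 (TTCNNNNGAA), ISRE (TTTCNNTTTC), NF-kB (GGGNNTTTCC), AP-1 (TGANTCA) and SMAD (CAGACA).
TGFBR2, raised with TNF, chr3:30347725-30347924: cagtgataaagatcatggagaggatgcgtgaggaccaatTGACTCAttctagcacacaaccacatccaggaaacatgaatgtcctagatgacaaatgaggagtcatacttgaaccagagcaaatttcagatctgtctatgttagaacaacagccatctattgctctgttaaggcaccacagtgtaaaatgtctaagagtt
LIFR, lowered with IL-1β, chr5:38595336-38595535: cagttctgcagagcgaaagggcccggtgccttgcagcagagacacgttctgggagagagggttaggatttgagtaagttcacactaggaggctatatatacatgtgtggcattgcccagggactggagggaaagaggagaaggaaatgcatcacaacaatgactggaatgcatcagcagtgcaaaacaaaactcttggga
IFNGR1, raised with OSM, chr6:137241466-137241665: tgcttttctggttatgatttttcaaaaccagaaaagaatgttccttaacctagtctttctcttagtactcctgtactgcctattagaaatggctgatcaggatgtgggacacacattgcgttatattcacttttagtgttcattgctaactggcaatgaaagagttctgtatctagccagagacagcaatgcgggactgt
IL1R1, raised with TGF-β1, chr2:102083052-102083251: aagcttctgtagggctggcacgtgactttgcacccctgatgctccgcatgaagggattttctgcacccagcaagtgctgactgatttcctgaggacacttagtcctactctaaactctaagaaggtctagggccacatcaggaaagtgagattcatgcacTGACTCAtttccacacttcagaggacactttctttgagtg
IL17RA, raised with IL-13, chr22:17077321-17077520: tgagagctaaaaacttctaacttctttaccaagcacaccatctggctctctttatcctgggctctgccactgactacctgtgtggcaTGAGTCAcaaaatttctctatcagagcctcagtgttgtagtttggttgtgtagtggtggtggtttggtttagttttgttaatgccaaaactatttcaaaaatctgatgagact
ACVRL1, raised with IFNγ, chr12:51922911-51923110: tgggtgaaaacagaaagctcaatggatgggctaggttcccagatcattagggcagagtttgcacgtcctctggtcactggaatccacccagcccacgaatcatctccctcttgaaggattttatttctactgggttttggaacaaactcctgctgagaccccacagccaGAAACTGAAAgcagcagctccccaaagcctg
IL6R, lowered with IFNα, chr1:154427806-154428005: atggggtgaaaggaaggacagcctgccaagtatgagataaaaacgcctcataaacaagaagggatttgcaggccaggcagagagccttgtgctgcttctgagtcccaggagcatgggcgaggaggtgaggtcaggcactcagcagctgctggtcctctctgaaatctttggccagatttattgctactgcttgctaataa
The TGFBR2, IL1R1 and IL17RA windows each held 1 AP-1 match and the ACVRL1 window 1 ISRE match, while the LIFR, IFNGR1 and IL6R windows held none of the 6. Over whole peaks, AP-1 was present in 28.1% of receptor peaks and in 25.7% of all peaks, ISRE in 10.9% and 9.13%, and NF-kB in 4.07% and 3.71%. For GAS these shares were 18.7% and 17.2%, for STAT6 15.4% and 14.4%, and for SMAD 32.2% and 33.2%. A match is a description of the letters and not evidence of binding.

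In unstimulated cells the receptor genes differed widely in how open their start sites were. The highest level was at TGFBR2, the ligand-binding TGF-β kinase, with 31.6, 37.1, 38.1 and 32.0 coverage per Mb in the 4 libraries (34.7 ± 3.39, SD, n = 4). The OSM and IL-6 receptor chains OSMR (26.8 ± 4.31), IL6R (25.6 ± 3.88) and IL6ST (25.0 ± 5.35) followed, with TGFBR3 (24.7 ± 2.14) and IL1RAP (22.4 ± 2.31). These 6 peaks stood between percentiles 98.8 and 99.6 of all peaks, whose median was 0.831. The IL-17 receptor chains IL17RA (21.1 ± 2.79) and IL17RC (17.4 ± 2.98), the interferon receptor chains IFNAR1 (16.9 ± 1.72) and IFNGR1 (16.5 ± 2.83), TGFBR1 (16.5 ± 1.75) and IL11RA (14.6 ± 0.338), the IL-11 receptor, came next. IL4R (10.9 ± 1.44), ENG (10.7 ± 2.04), TNFRSF1A (10.4 ± 2.60), IL13RA1 (8.62 ± 1.80) and IL1R1 (8.36 ± 0.994) were in the middle of the order.

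Receptor genes of one ligand were often unequal. IFNAR2 (3.92 ± 0.772) was below IFNAR1, IFNGR2 (2.19 ± 0.603) below IFNGR1, and TNFRSF1B (4.69 ± 0.989) below TNFRSF1A, a separate receptor of TNF, with no overlap between the libraries of either gene in each pair. LIFR (4.15 ± 1.41) was below OSMR, the other partner of IL6ST for OSM. The IL-22 receptor IL22RA1 had 3.63, 3.16, 3.49 and 3.47 (3.44 ± 0.199), just above the median of promoter-class peaks (2.91). IL22RA2, the soluble IL-22 receptor (0.561 ± 0.369), IL2RG, the common gamma chain (0.419 ± 0.415), and the decoy IL1R2 (0.309 ± 0.354) were lowest, near or under the level of 3 reads (0.426 to 0.683 in the unstimulated libraries). Of 34 pairs of neighbours in this order, 4 had libraries that did not overlap (TGFBR2 above OSMR, IL11RA above IL4R, IL31RA above IL10RA and IL22RA1 above IL17RE), so most neighbours were not separated by their spread.

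**Figure D1:**
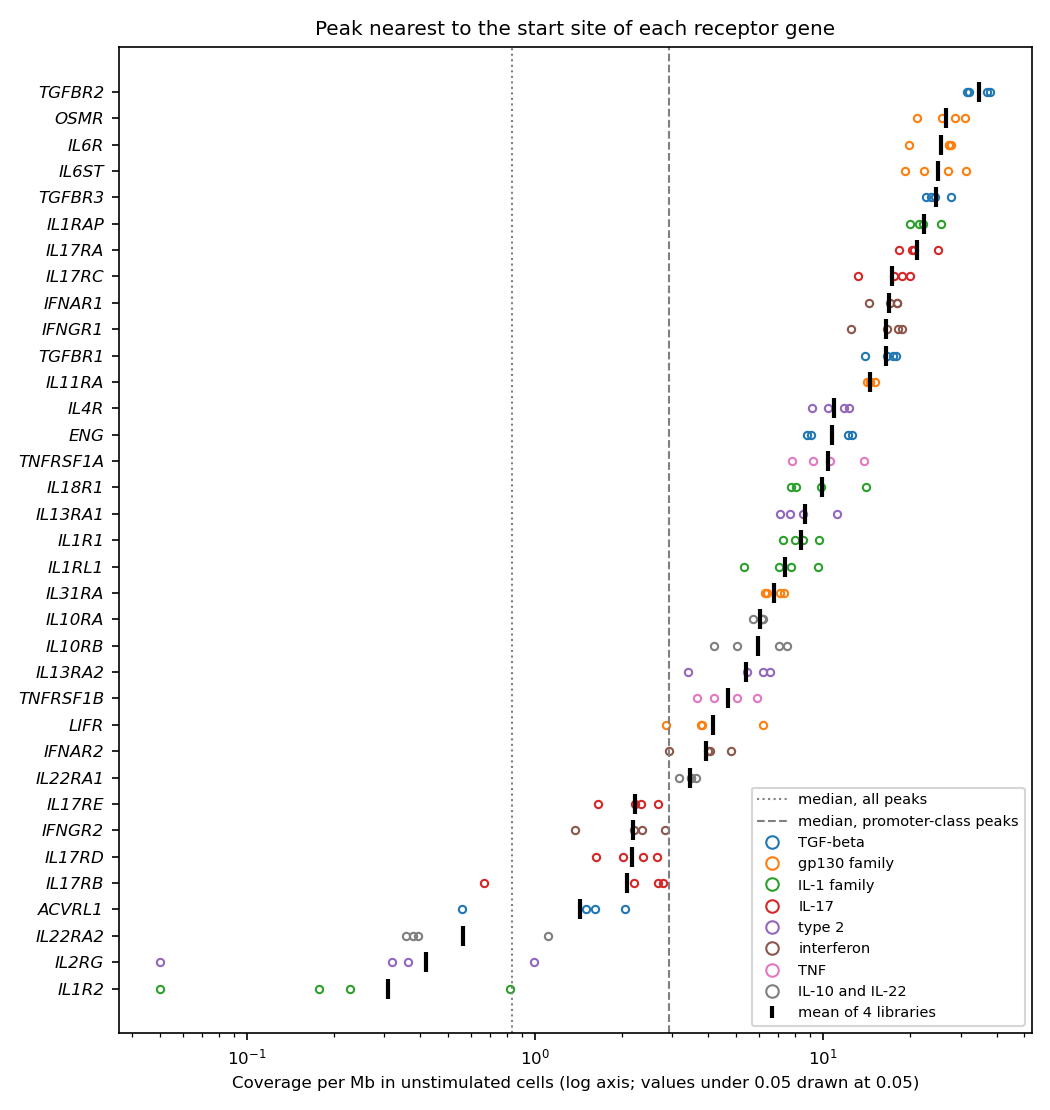
Coverage per Mb (log axis) of the peak nearest to the start site of each of the 35 receptor genes in the 4 unstimulated libraries (circles, colored by receptor group) with their mean (black bar). The genes run from TGFBR2 at 34.7 down to IL1R2 at 0.309, and dotted and dashed lines mark the medians of all peaks (0.831) and of promoter-class peaks (2.91).

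These levels belong to the peak nearest to the main annotated start of each gene (MANE Select transcript, GENCODE 44), which lay within 1 kb for 32 genes. The peak was named for another gene in 6 cases, such as IL1RL2 for IL1R1 and LIFR-AS1 for LIFR. For IL1RL1, the IL-33 receptor, it lay 1644 bases into the gene and was named IL18R1, for IL13RA2 it lay 5623 bases upstream, and for IL1R2 1991 bases upstream. The naming rule itself took the highest promoter-class peak of each gene, which 27 genes had. That peak differed by more than 1 SD from the start-site peak for 10 of them. IL6R had 1.54 ± 0.340 and IFNAR1 1.12 ± 0.562 at their promoter-class peaks, against 25.6 and 16.9 at the start, where the table called the peaks exonic and intronic. ACVRL1, a type I TGF-β family receptor, had 10.4 ± 0.661 at its promoter-class peak and 1.43 ± 0.629 at the main start site. The order of receptor genes thus depends on which peak stands for a gene.

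At the start-site peaks, 10 of 350 comparisons (35 genes and 10 cytokines) were called, which is 2.86%, against 1.86% of all tests over all peaks. Of the 10, 4 were calls of a single peak that lay 1644 bases into IL1RL1. The share is therefore not read as an excess at start sites. In these bulk libraries, a change in the number of cells with an open site and a change in openness per cell cannot be told apart. The gp130 chain IL6ST, shared by the IL-6 and OSM receptors, rose with OSM from 22.4, 19.2, 31.3 and 27.2 to 36.4, 35.8, 40.1 and 36.3 coverage per Mb (log2 change 0.58 ± 0.11 SE, adjusted p = 8.05e-05). All OSM libraries stood above all unstimulated ones. With TNF the same peak rose by 0.38 on the log2 scale (adjusted p = 0.0204), a call lost under the GC correction and without TNF replicate 1, unstimulated replicate 1 or unstimulated replicate 2. LIFR rose with OSM from 4.15 ± 1.41 to 7.01 ± 1.33 (0.72 ± 0.22, adjusted p = 0.0486), with overlap between the groups, and no alternative was computed for this peak, which the table named for LIFR-AS1. IL13RA1, the IL-13 binding chain, rose with IL-1β (0.66 ± 0.17, adjusted p = 0.00769) and with OSM (0.66 ± 0.17, adjusted p = 0.013). The IL-1β call was lost under the GC correction and without unstimulated replicate 2. The OSM call was lost in 5 of 19 alternatives (loess offsets, without unstimulated replicate 1 or 2, and without OSM replicate 3 or 4), and its libraries overlapped the unstimulated ones. The betaglycan gene TGFBR3 fell with TGF-β1 from 22.8, 27.7, 23.7 and 24.5 to 23.6, 15.6, 13.5 and 16.2 (-0.53 ± 0.13, adjusted p = 0.00445). One TGF-β1 library lay within the unstimulated range, and the call was lost under loess scaling and without TGF-β1 replicate 3. The peak inside IL1RL1 that stood for its start rose with 4 cytokines, IL-1β (1.10 ± 0.18), TGF-β1 (0.92 ± 0.18), TNF (1.17 ± 0.18) and OSM (1.31 ± 0.18), under every alternative run.

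Over all receptor peaks, 138 of 1031 (13.4%) were called for at least 1 cytokine, against 11.8% of all tested peaks. Of these, 82 were called for 1 cytokine and 56 for 2 or more, at most 5. They belonged to 27 genes. No peak of TNFRSF1B, IL11RA, IL2RG, IL17RB, IL17RD, IL17RE, IL22RA1 or IL10RB was called. The 10 comparisons share the 4 unstimulated libraries.

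TNF called the most receptor peaks, 39 raised and 19 lowered (3.78% and 1.84% of those tested, against 2.67% and 1.69% of all peaks). IL-1β raised 23 and lowered 16 (2.23% and 1.55%, against 1.72% and 1.79%). OSM raised 30 and lowered 11 (2.91% and 1.07%, against 1.55% and 1.29%), and TGF-β1 raised 15 and lowered 23 (1.45% and 2.23%, against 1.98% and 1.52%). With this scaling the background shares were thus passed most for peaks raised by OSM or TNF and lowered by TGF-β1. IL-13 raised 9 and lowered 13 (0.873% and 1.26%, against 0.73% and 0.88%). IFNγ raised 10 and lowered 4 (0.97% and 0.388%, against 1.48% and 0.275%), and IFNα raised 2 and lowered 3 (0.194% and 0.291%, against 0.513% and 0.334%), so raised receptor peaks were fewer than the background share for both interferons.

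IL-6, IL-17A and IL-22 called 0 receptor peaks with limma. At an unadjusted p under 0.05, 95 of 1031 receptor peaks passed with IL-6 (9.21%, against 8.65% of all peaks). With IL-17A 67 passed (6.5%, against 6.45%), and with IL-22 this was 79 (7.66%, against 7.15%). Over all peaks these cytokines raised 0.0427%, 0.0329% and 0.0344% and lowered 0.0643%, 0.00688% and 0.00221%. Without the library labelled IL-6 replicate 4 the IL-6 count stayed at 0, and without IL-6 replicate 1 or 2 it was 3 or 1.

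Under OSM the whole set of tested peaks had a median log2 change of -0.22, under TGF-β1 one of 0.15, and under each other cytokine it lay within 0.1 of 0. Receptor peaks had medians of -0.13 and 0.15. Scaling moved the direction of calls for these cytokines. With a correction for GC content OSM called 58 raised and 2 lowered receptor peaks, against 30 and 11, and TGF-β1 12 raised and 36 lowered, against 15 and 23. The same correction gave 11 raised and 9 lowered for IL-13, against 9 and 13, and loess offsets or library totals 1 raised and 5 lowered for IFNα, against 2 and 3. Shares over all peaks under these other scalings are not given, so the comparison with the background holds for the main scaling only.

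**Figure D2:**
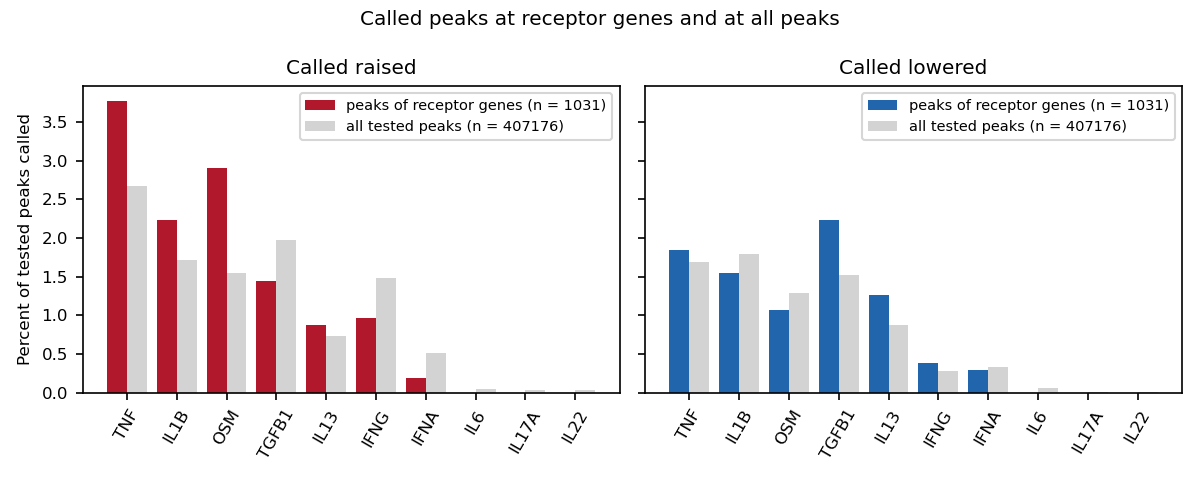
Percent of tested peaks called raised (left) and lowered (right) with each cytokine against unstimulated, for peaks of the 35 receptor genes (colored) and for all tested peaks (grey). The widest gaps above the background are for peaks raised by OSM (2.91% against 1.55%) and TNF (3.78% against 2.67%), and IL-6, IL-17A and IL-22 have no called receptor peak.

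**Figure D3:**
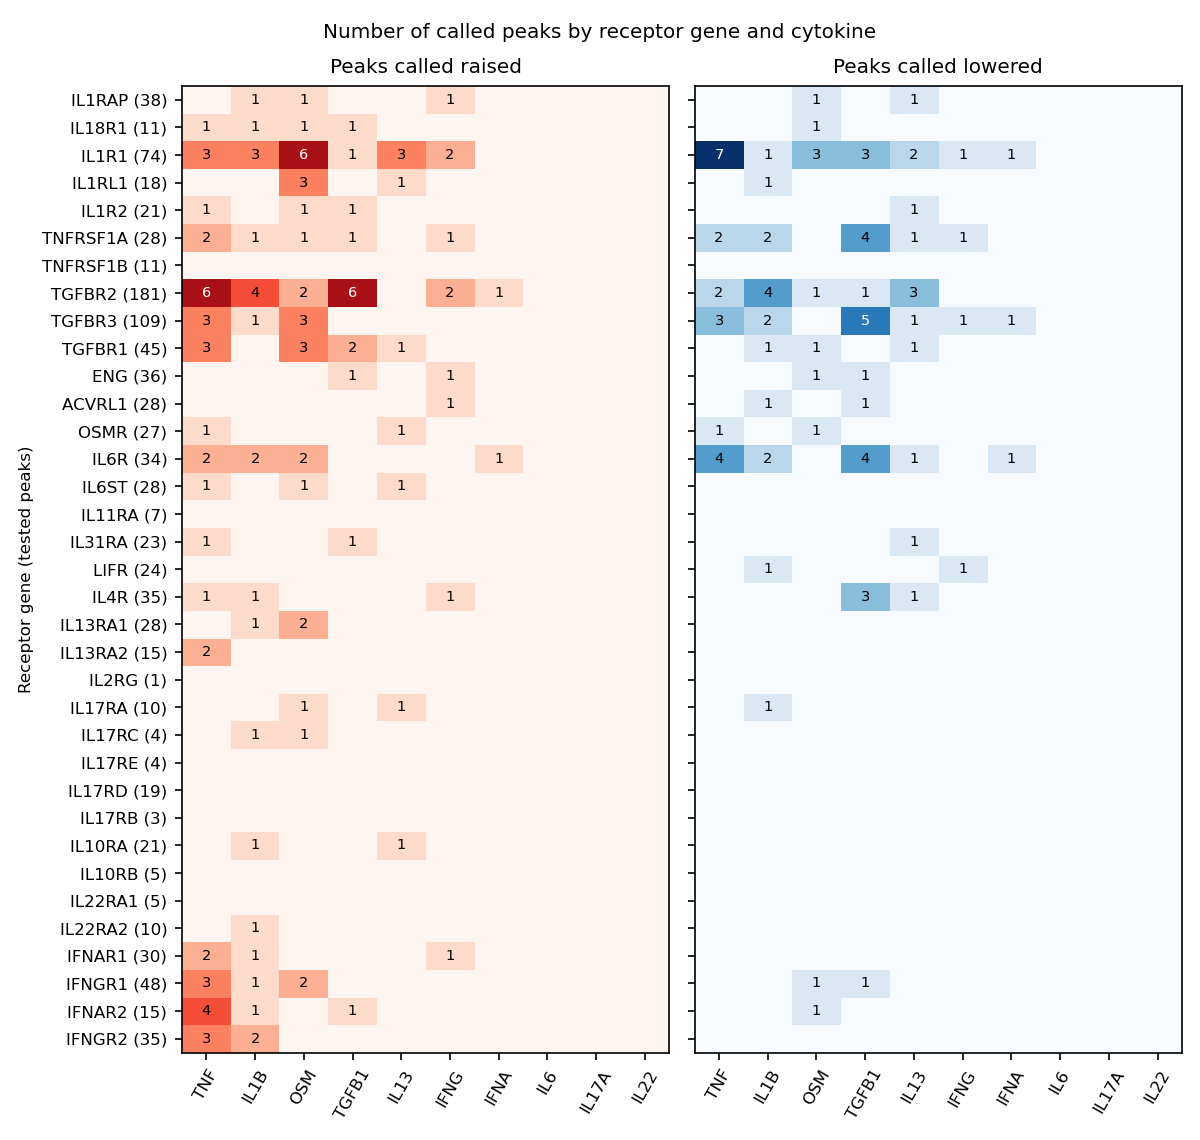
Number of peaks called raised (red) and lowered (blue) for each receptor gene (rows, tested peaks in parentheses, grouped by receptor family) and cytokine (columns). IL1R1 and TGFBR2 hold the most calls (36 and 32 over the 10 cytokines). These are 4.86% and 1.77% of their tests, against 1.86% for all peaks, so the TGFBR2 count is near the background. TNF raises peaks of all 4 interferon receptor genes without lowering any.

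Among the receptors of the IL-1 family (162 tested peaks), IL1R1 held the most calls of any receptor gene, 18 raised and 18 lowered over 7 cytokines. This is 4.86% of its tests, against 2.1% for all receptor peaks and 1.86% for all peaks. All of the 74 tested peaks named for IL1R1 lay upstream of its main start site, several of them in introns of longer IL1R1 transcripts. TNF lowered 7 of them and raised 3, where 1.69% and 2.67% of all peaks were lowered and raised. OSM raised 6 and lowered 3 (10 and 0 under the GC correction), where 1.55% and 1.29% of all peaks were raised and lowered.

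An intronic IL1R1 peak 59.6 kb upstream of the main start (the sequence above) held 0.944, 0.65, 1.82 and 1.95 coverage per Mb in unstimulated cells and 3.95, 5.21, 6.62 and 5.36 with TGF-β1. It rose 3.95-fold by the ratio of means (log2 change 1.70 ± 0.30, adjusted p = 1.28e-05). The lack of overlap between these groups was required by the naming rule. The same peak rose with IL-1β (1.31 ± 0.30, adjusted p = 0.00155), IFNγ (1.12 ± 0.30, adjusted p = 0.0207) and TNF (1.09 ± 0.30, adjusted p = 0.0139). The IFNγ and TNF calls were lost in 4 and 3 of 19 alternatives. IL-1β raised another intronic IL1R1 peak 26.0 kb upstream from 1.91, 0.379, 0.288 and 0.465 to 2.13, 3.54, 2.85 and 2.03. Its change was 1.45 ± 0.39 (adjusted p = 0.00985), and it was lost with a pseudocount of 0.1 and without unstimulated replicate 2 or 3 or IL-1β replicate 2.

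With IL-13, 2 distal IL1R1 peaks about 15 kb apart moved in opposite directions. The one 86.4 kb upstream rose from 1.59, 0.953, 0.932 and 0.887 to 4.49, 4.77, 2.69 and 2.99 (1.40 ± 0.32, adjusted p = 0.00395). The one 101.2 kb upstream fell from 5.04, 3.90, 4.69 and 4.75 to 0.667, 2.45, 0.749 and 1.73 (-1.53 ± 0.28, adjusted p = 8.3e-05). Another, 92.5 kb upstream, fell with OSM (-1.02 ± 0.26, adjusted p = 0.00796) and with IFNα (-1.02 ± 0.26, adjusted p = 0.0187), calls lost in 2 and 4 of 19 alternatives. In GENCODE these 3 peaks lie in an intron of a gene known only by an identifier, and not within IL1R1.

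IL1RAP, the accessory chain, had 5 calls, in 1.32% of its tests, against 1.86% for all peaks. IL-1β raised a distal IL1RAP peak 27.8 kb upstream that held 0, 0.349, 0 and 0 in unstimulated cells, which is under 3 reads, and 1.24, 0.988, 0.908 and 1.14 with IL-1β (log2 change 1.45 ± 0.38, adjusted p = 0.00796). IL-13 lowered an IL1RAP peak 3.8 kb downstream from 1.48 ± 0.291 to 0.269 ± 0.319, also under 3 reads (-1.45 ± 0.38, adjusted p = 0.019). The latter call was lost in 5 of 19 alternatives, and no fold is given for either peak because 1 group lay under 3 reads. In IL18R1, which encodes the IL-18 receptor and overlaps IL1RL1, the peak that also stood for the IL1RL1 start had 17.4 to 20.6 with OSM and 5.30 to 9.59 in unstimulated cells (1.31 ± 0.18, adjusted p = 1.46e-08).

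**Figure D4:**
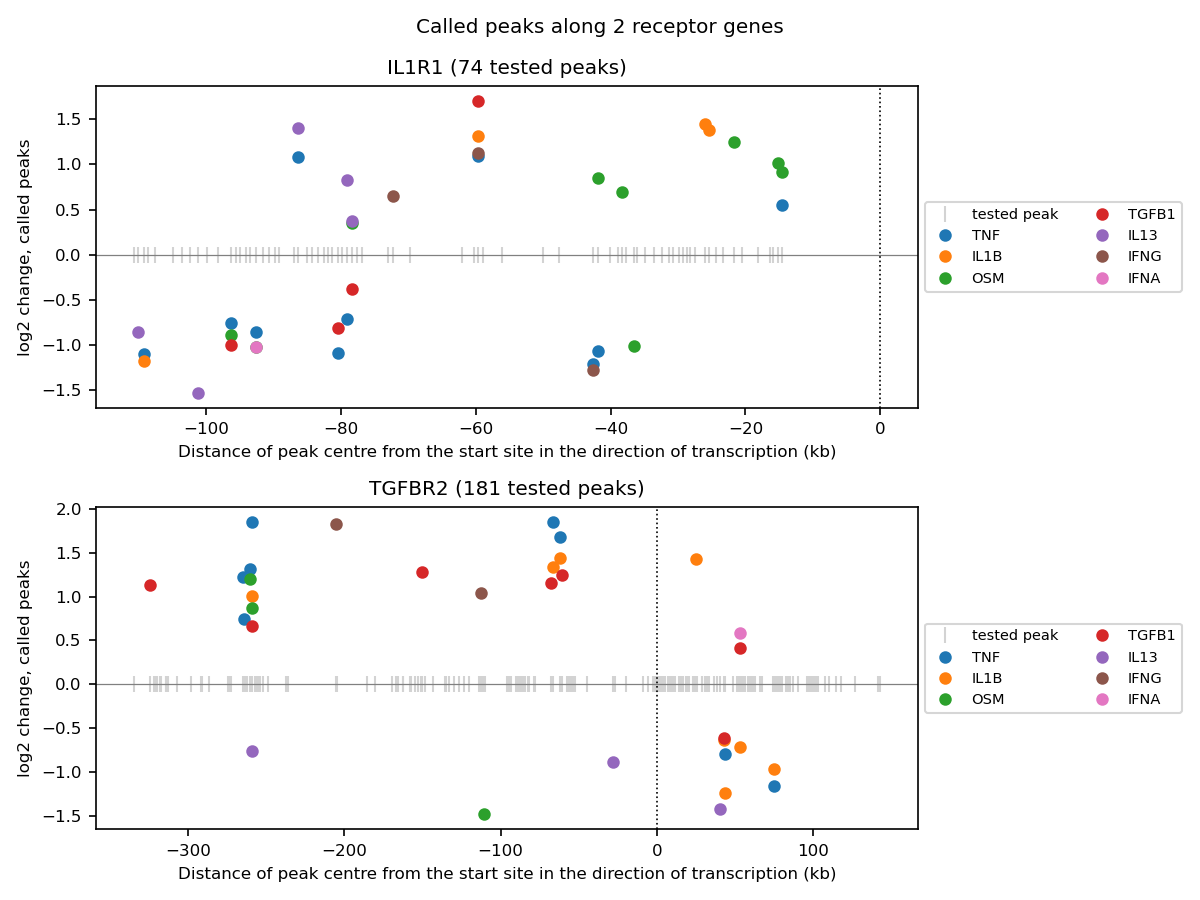
Called peaks of IL1R1 (top) and TGFBR2 (bottom) by the distance of their centre from the main start site in kb, with the log2 change from unstimulated on the vertical axis and 1 color per cytokine. Grey ticks mark the 74 and 181 tested peaks, and the dotted line marks the start. Calls of both directions are spread over the IL1R1 region, and several TGFBR2 peaks about 60 and 260 kb upstream were raised by more than 1 cytokine.

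Of the TNF receptors, TNFRSF1A had calls with 6 cytokines, in 5.71% of its tests, against 1.86% for all peaks. TNFRSF1B, which is known mainly from immune cells, had none among 11 peaks. At the share of all peaks, few calls would fall on so few peaks. TNF lowered an intronic peak of TNFRSF1A 6.8 kb into the gene, from 14.2, 9.5, 13.0 and 12.5 coverage per Mb to 6.97, 2.86, 5.58 and 4.76. The change was -1.25 ± 0.18 (adjusted p = 8.27e-09), held under every alternative, and the naming rule required groups without overlap. TGF-β1 raised a neighbouring intronic peak 8.4 kb into the gene from 3.92, 5.82, 3.31 and 4.25 to 13.6, 9.76, 9.80 and 12.9 (1.32 ± 0.22, adjusted p = 2.29e-06). TGF-β1 lowered 4 other TNFRSF1A peaks of 28 tested (3 under loess offsets), where 1.52% of all peaks were lowered. At a distal peak 3.4 kb upstream, TNF gave a rise (0.70 ± 0.19, adjusted p = 0.00931), and IL-13 (-0.78 ± 0.19, adjusted p = 0.00657) and IFNγ (-0.66 ± 0.19, adjusted p = 0.035) a fall. The IFNγ call was lost in 7 of 19 alternatives and the other 2 in 3 each. The start site of TNFRSF1A itself did not pass the test with TNF (10.4 ± 2.60 and 9.87 ± 2.15, -0.06 ± 0.18, adjusted p = 0.94).

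Among the receptors of TGF-β (399 tested peaks), TNF raised 12 and lowered 5 (3.01% and 1.25%, against 2.67% and 1.69% of all peaks). TGF-β1 raised 9 and lowered 8 (2.26% and 2.01%, against 1.98% and 1.52%), shares near those of all peaks. Under the GC correction these were 7 and 12. The uncorrected calls included 6 raised of 181 peaks at TGFBR2 (4 under the GC correction) and 5 lowered of 109 at TGFBR3 (3 under loess offsets). The TNF call with the smallest adjusted p at TGFBR2 was at a distal TGFBR2 peak 258.8 kb upstream (the sequence above), with 3.68, 6.09, 4.50 and 7.31 coverage per Mb in unstimulated cells and 20.3, 19.6, 22.9 and 18.1 with TNF. It rose 3.75-fold (1.85 ± 0.21, adjusted p = 7.79e-14). IL-1β (1.00 ± 0.21, adjusted p = 0.000237), OSM (0.86 ± 0.21, adjusted p = 0.00422) and TGF-β1 (0.66 ± 0.21, adjusted p = 0.0454) raised the same peak, and IL-13 lowered it (-0.77 ± 0.21, adjusted p = 0.0237). At this distance the assignment to TGFBR2 is that of the table.

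Closer to the gene, a distal TGFBR2 peak 66.6 kb upstream rose with TNF from 0.663, 1.5, 1.36 and 0.967 to 5.49, 6.05, 4.48 and 4.92 (1.85 ± 0.37, adjusted p = 8.93e-05). IL-1β raised a peak 61.7 kb upstream from 2.09, 0.564, 5.13 and 3.11 to 9.06, 5.88, 5.52 and 7.67 (1.43 ± 0.30, adjusted p = 0.000385), a call lost without unstimulated replicate 2 (adjusted p = 0.0743). Within the gene, IL-1β lowered an intronic peak 43.7 kb downstream of the start from 6.02 ± 0.787 to 2.31 ± 0.688 (-1.24 ± 0.25, adjusted p = 9.71e-05). IFNγ raised a distal peak 205.6 kb upstream from 0.24, 0.329, 1.56 and 0.704 to 4.13, 3.12, 2.78 and 3.90 (1.83 ± 0.39, adjusted p = 0.000667). OSM lowered another 110.7 kb upstream from 2.93 ± 0.360 to 0.759 ± 0.374 (-1.49 ± 0.34, adjusted p = 0.00185). The start site of TGFBR2 was open in every group, and no cytokine changed it past the threshold (with TGF-β1 28.3 ± 5.15, -0.30 ± 0.10, adjusted p = 0.0718).

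ACVRL1 had the largest change of any named receptor peak. IFNγ raised an exonic ACVRL1 peak 15.5 kb into the gene (the sequence with the ISRE match above) from 1.98, 0.961, 2.96 and 2.01 to 10.3, 8.40, 9.88 and 10.1, which is 4.89-fold (2.10 ± 0.31, adjusted p = 3.77e-08). The call held under every alternative. That all 4 IFNγ libraries stood above all unstimulated ones was required by the naming rule. TGFBR1, the signalling kinase, had a promoter-class peak 1.9 kb upstream that rose with TGF-β1 from 1.5, 4.53, 3.75 and 2.49 to 7.76, 8.95, 10.1 and 6.15 (1.36 ± 0.31, adjusted p = 0.00152). IL-13 lowered it to 1.36, 0.315, 0.975 and 1.71 (-1.17 ± 0.31, adjusted p = 0.0178), a call lost in 4 of 19 alternatives. ENG, or endoglin, had an intronic peak 17.1 kb into the gene that rose with TGF-β1 from 0.673 ± 0.5 to 2.77 ± 0.685 (1.54 ± 0.40, adjusted p = 0.00825), lost with a pseudocount of 0.1 and without unstimulated replicate 3. IFNα called 1 TGF-β receptor peak in each direction, an intronic TGFBR2 peak 53.0 kb into the gene that rose from 22.7 ± 2.62 to 34.2 ± 2.82 (0.58 ± 0.12, adjusted p = 0.00123) and a TGFBR3 peak that fell from 8.40 ± 0.107 to 5.03 ± 1.60 (-0.74 ± 0.20, adjusted p = 0.0321). The TGFBR3 call was lost in 8 of 19 alternatives.

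The receptors that use gp130 or resemble those that do (143 tested peaks) had calls spread over IL6R, OSMR, IL6ST, LIFR and IL31RA. They made up 2.17% of the group's tests, against 1.86% for all peaks. IL6R, the IL-6 binding chain, had calls in 5.59% of its tests, 7 raised and 12 lowered. TNF lowered 4 of its 34 peaks and raised 2, where 1.69% and 2.67% of all peaks were lowered and raised. TGF-β1 lowered 4 and raised 0 (5 and 0 under the GC correction), where 1.52% and 1.98% of all peaks were lowered and raised. An intronic IL6R peak 22.6 kb into the gene (the sequence above) held 3.89, 6.41, 4.27 and 5.38 coverage per Mb in unstimulated cells. It fell to 1.43, 1.13, 2.36 and 2.57 with TNF (-1.23 ± 0.28, adjusted p = 0.000954) and to 2.12, 1.72, 1.64 and 2.35 with IFNα (-1.15 ± 0.28, adjusted p = 0.0132). The naming rule required that neither treated group overlap the unstimulated one. The IFNα call was lost in 4 of 19 alternatives, each of them a library left out. TGF-β1 lowered a peak 14.3 kb into the gene from 11.4, 8.91, 6.67 and 10.8 to 4.09, 3.99, 4.37 and 4.60 (-1.04 ± 0.21, adjusted p = 0.000147). A further IL6R peak rose with IFNα by 0.46 ± 0.13 (adjusted p = 0.0469) but was lost in 12 of 19 alternatives.

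LIFR, the receptor of leukemia inhibitory factor, had an intronic peak 38.8 kb upstream of its main start (the sequence above) that IL-1β lowered from 5.66, 6.89, 7.84 and 3.55 to 1.16, 2.33, 1.48 and 2.37. This was 3.26-fold lower by the ratio of means (-1.46 ± 0.23, adjusted p = 3.53e-07) and held under every alternative. The peak also lies in an intron of the antisense gene LIFR-AS1, and open chromatin has no strand. In OSMR, TNF lowered an intronic peak 78.2 kb into the gene from 5.45, 5.57, 4.36 and 4.11 to 3.09, 2.33, 0.392 and 2.10 (-1.28 ± 0.26, adjusted p = 0.00012), at the threshold without TNF replicate 3 (adjusted p = 0.0502). OSM lowered another OSMR peak 25.3 kb into the gene from 2.51, 4.95, 4.48 and 2.67 to 0.816, 1.04, 1.96 and 1.78 (-1.13 ± 0.29, adjusted p = 0.0115), lost in 4 of 19 alternatives.

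The IL-4 and IL-13 receptors (79 tested peaks) had calls in 1.52% of their tests, against 1.86% for all peaks. IL4R, which pairs with IL13RA1, had an intronic peak 21.8 kb into the gene with 8.03, 8.06, 7.89 and 10.7 coverage per Mb in unstimulated cells. It fell to 5.21, 3.62, 2.87 and 4.98 with IL-13 (-0.99 ± 0.19, adjusted p = 0.000235). The same peak rose to 13.1, 16.1, 17.5 and 16.0 with IL-1β (0.82 ± 0.19, adjusted p = 0.00222) and to 16.6, 19.3, 11.8 and 20.1 with TNF (0.91 ± 0.19, adjusted p = 0.000339). The IL-13, unstimulated and TNF libraries did not overlap. IFNγ raised an IL4R peak 7.7 kb into the gene from 2.30, 4.19, 1.69 and 1.66 to 5.51, 5.48, 6.49 and 5.40 (1.14 ± 0.29, adjusted p = 0.0107), lost in 3 of 19 alternatives. TGF-β1 lowered 3 of 35 IL4R peaks (1 under loess offsets), where 1.52% of all peaks were lowered. TNF raised 2 of 15 peaks of the decoy-like IL13RA2, where 2.67% of all peaks were raised.

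Of the IL-17 receptor genes (40 tested peaks), the calls were at IL17RA and IL17RC. They made up 1.25% of the group's tests, against 1.86% for all peaks. A distal IL17RA peak 7.6 kb upstream (the sequence above) held 8.41, 5.09, 6.34 and 3.85 coverage per Mb in unstimulated cells. With IL-13 it rose to 19.8, 21.8, 18.9 and 18.2, which is 3.32-fold (1.70 ± 0.22, adjusted p = 1.41e-09). With IL-1β it fell to 2.04, 1.44, 1.28 and 3.31 (-1.37 ± 0.22, adjusted p = 6.62e-07), and with OSM it rose to 10.7, 10.1, 9.42 and 11.8 (0.82 ± 0.22, adjusted p = 0.0162). The IL-13 and IL-1β calls held under every alternative, and the OSM call was lost in 5 of 19 alternatives. With IL-17A, its own ligand, the peak did not pass the test (4.53 ± 1.53, -0.35 ± 0.22, adjusted p = 0.85). The value of 23.9 in the library labelled IL-6 replicate 4, given above, is from this peak, and the IL-6 group as a whole did not pass the test (0.81 ± 0.22, adjusted p = 0.113, and 0.42, adjusted p = 0.934 without that library). For IL17RC, OSM raised a peak 4.5 kb upstream of its start from 3.81, 4.03, 3.74 and 3.26 to 12.2, 9.33, 9.17 and 8.42 (1.28 ± 0.26, adjusted p = 0.000413). This peak lies in an intron of the adjacent IL17RE in GENCODE.

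The receptors of IL-10 and IL-22 (41 tested peaks) had 3 calls in all, in 0.732% of their tests, against 1.86% for all peaks. IL-13 raised a peak of IL10RA, the IL-10 binding chain, 16.5 kb downstream of its start, from 3.58, 3.61, 3.58 and 5.13 to 11.8, 18.5, 11.6 and 14.2 (3.53-fold, 1.69 ± 0.25, adjusted p = 2.49e-07). The groups did not overlap, which the naming rule required. The table calls this peak distal, and GENCODE places it in an exon of IL10RA. In the library labelled IL-6 replicate 4 it held 14.2, and 4.00 to 4.19 in the other IL-6 libraries.

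At the interferon receptors (128 tested peaks), the calls with TNF and IL-1β were all raised. TNF raised 12 peaks and lowered 0 (9.38% raised, against 2.67% of all peaks), IL-1β raised 5 and lowered 0 (3.91%, against 1.72%), and these counts were 12 to 14 and 5 to 6 raised with 0 lowered under each scaling run. IFNγ raised 1 and IFNα called 0 with limma (for IFNα 10 of 128 passed an unadjusted p under 0.05, which is 7.81%, against 9.47% of all peaks). The 12 peaks raised by TNF belonged to IFNAR2 (4), IFNGR1 (3), IFNGR2 (3) and IFNAR1 (2). IFNAR2, IL10RB, IFNAR1 and IFNGR2 lie next to each other on chromosome 21 within 274.1 kb, and 9 of the 12 were among the 85 tested peaks of these 4 genes. None of them was at IL10RB, which had 5 tested peaks.

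The strongest of them was an IFNAR2 peak 25.9 kb upstream of its main start, with 9.16, 7.73, 9.00 and 8.90 coverage per Mb in unstimulated cells and 35.1, 26.2, 29.6 and 26.8 with TNF. It rose 3.38-fold (1.69 ± 0.18, adjusted p = 1.16e-14). IL-1β raised it to 14.8, 18.0, 14.5 and 12.9 (0.75 ± 0.18, adjusted p = 0.00363), while IFNα (7.84 ± 2.36, adjusted p = 0.843) and IFNγ (6.88 ± 1.98, adjusted p = 0.529) did not pass the test. An IFNGR2 peak 20.3 kb upstream rose with TNF from 3.72, 4.52, 3.87 and 3.25 to 13.8, 13.3, 12.7 and 12.9 (1.66 ± 0.24, adjusted p = 2.12e-08). Both peaks are intronic in the table and lie between genes in GENCODE. An IFNAR1 peak 0.6 kb into the gene rose from 6.58, 10.2, 9.68 and 7.78 to 15.6, 15.5, 15.7 and 14.6 (0.82 ± 0.19, adjusted p = 0.000921). These IFNGR2 and IFNAR1 peaks lay outside the naming rule and were chosen after their values were seen. On chromosome 6, a distal IFNGR1 peak 22.2 kb upstream (the sequence above) had 2.73, 2.79, 2.94 and 2.51 in unstimulated cells and 7.34, 9.24, 10.2 and 8.64 with OSM (3.23-fold, 1.52 ± 0.28, adjusted p = 4.17e-05).

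**Figure D5:**
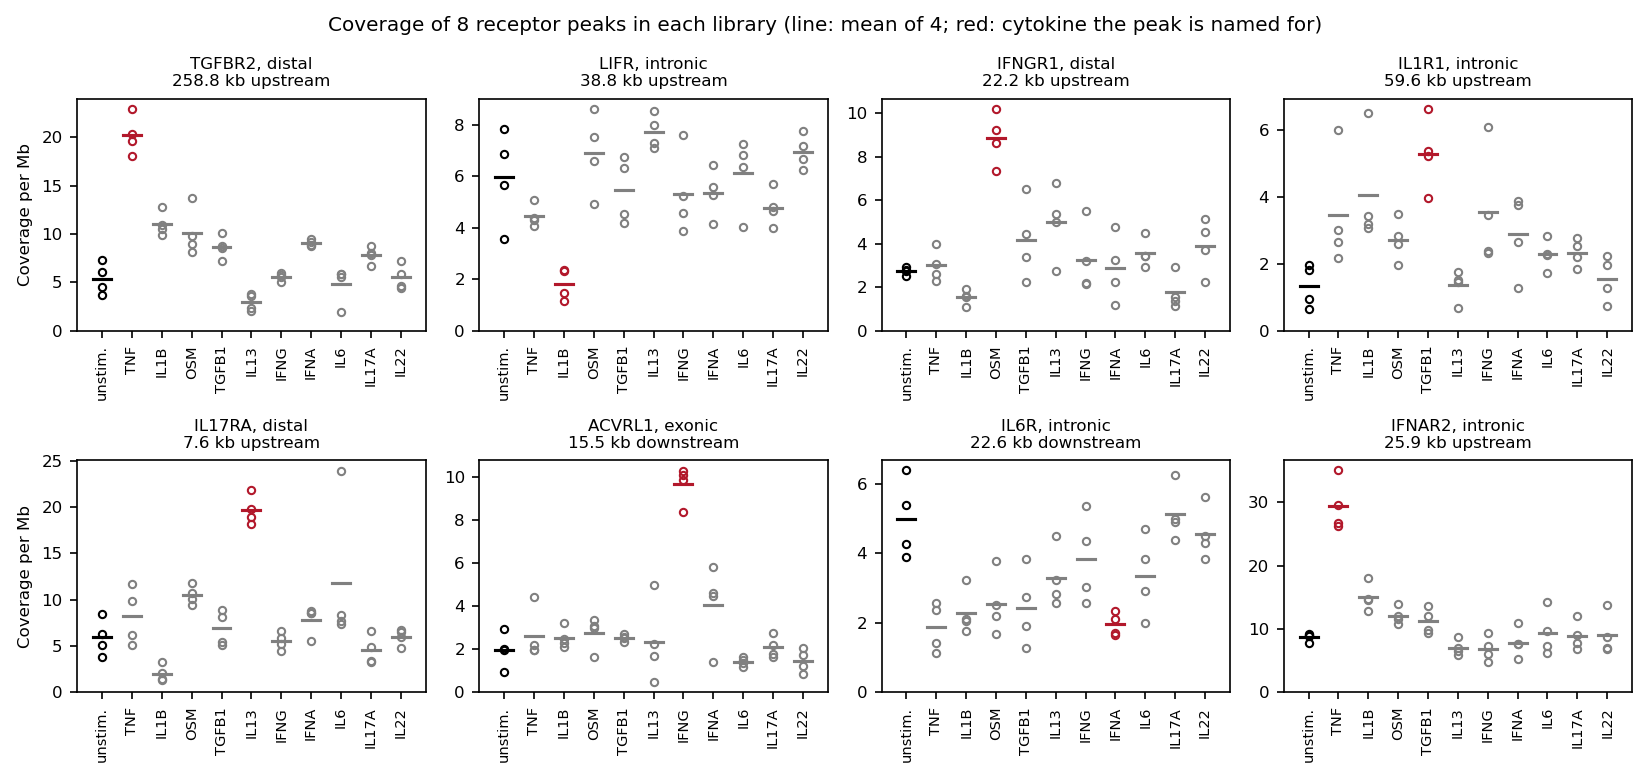
Coverage per Mb of 8 receptor peaks in each of the 44 libraries (circles) with the mean of each group (line), and the cytokine the peak is named for in red. The naming rule took only peaks where the 4 red circles lie clear of the 4 black unstimulated ones. For IFNAR2 with TNF these lie at 26.2 to 35.1 and at 7.73 to 9.16. In the IL17RA panel 1 IL-6 library lies at 23.9.

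The peaks of each cytokine's own receptor genes were also counted. With 5 cytokines at least 1 peak of the own receptor genes was called, and with IL-6, IL-17A, IL-22, IFNα and IFNγ none was. TGF-β1 raised 9 and lowered 8 of 399 peaks of its receptors, as above. IL-1β raised 4 and lowered 1 of 133 (3.01% and 0.752%, against 1.72% and 1.79% of all peaks), and TNF raised 2 and lowered 2 of 39 (5.13% each, against 2.67% and 1.69%). OSM raised 1 and lowered 1 of 79 (1.27% each, against 1.55% and 1.29%), and IL-13 lowered 1 of 78 (1.28%, against 0.88%). Neither interferon called any of the 45 peaks of IFNAR1 and IFNAR2 or the 83 of IFNGR1 and IFNGR2 for its own receptor, where 0.847% and 1.75% of all peaks were called, so counts this small are near the background. With IL-6, the start sites of IL6ST (31.0 ± 2.69, 0.32 ± 0.11, adjusted p = 0.297) and IL6R (27.4 ± 2.47, 0.11 ± 0.11, adjusted p = 0.843) did not pass the test, nor without the library labelled replicate 4 (0.31, adjusted p = 0.762, and 0.16, adjusted p = 0.968). With IL-22, the start site of IL22RA1 was at 2.88, 2.86, 2.17 and 4.00 (-0.20 ± 0.28, adjusted p = 0.923). With IL-17A, IL17RA was at 19.4, 20.0, 19.4 and 20.3 (-0.08 ± 0.13, adjusted p = 0.962).

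At 15 of 1031 receptor peaks, one cytokine was called raised and another lowered. The share of such peaks among all tested peaks is not given here, so this count has no background beside it. IL-13 was 1 of the cytokines at peaks of several genes, as at the IL17RA, IL4R and TGFBR2 peaks above. A peak named for TGFBR1 that lies in an intron of COL15A1, 74.8 kb upstream of the TGFBR1 start, fell with IL-1β from 31.2, 33.6, 30.4 and 22.0 to 19.8, 13.1, 17.1 and 14.3 (-0.85 ± 0.11, adjusted p = 7.05e-10). It rose to 47.4, 52.6, 46.6 and 49.1 with OSM (0.75 ± 0.11, adjusted p = 2.36e-07) and to 44.3, 38.1, 40.2 and 41.3 with IL-13 (0.49 ± 0.11, adjusted p = 0.00388, lost without unstimulated replicate 4). An IL31RA peak fell with IL-13 (-0.53 ± 0.11, adjusted p = 0.000413) and rose with TNF (0.42 ± 0.11, adjusted p = 0.0055). A TGFBR3 peak rose with TNF (0.83 ± 0.16, adjusted p = 2.46e-05) and fell with TGF-β1 (-0.81 ± 0.16, adjusted p = 8.41e-05). The difference between the cytokines was not itself tested at these peaks.

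Genes that act next to the receptors (the kinases JAK1, JAK2, JAK3 and TYK2, the IL-1 and IL-17 adaptors MYD88, IRAK1, IRAK2, IRAK3, IRAK4, TRAF6, TRAF3IP2, TAB1, TAB2 and MAP3K7, the TNF receptor partners TRADD, RIPK1, TRAF2, TRAF5 and FADD, and IL1RN, IL18BP, ADAM17, ADAM10 and FKBP1A) had 584 tested peaks. TNF raised 24 and lowered 9 of them (4.11% and 1.54%, against 2.67% and 1.69% of all peaks). TGF-β1 raised 13 and lowered 16 (2.23% and 2.74%, against 1.98% and 1.52%), and IL-1β raised 15 and lowered 10 (2.57% and 1.71%, against 1.72% and 1.79%). IFNγ raised 13 and lowered 1 (2.23% and 0.171%, against 1.48% and 0.275%), and OSM raised 9 and lowered 8 (1.54% and 1.37%, against 1.55% and 1.29%). IFNα raised 6 and lowered 4 (1.03% and 0.685%, against 0.513% and 0.334%), and IL-13 raised 4 and lowered 7 (0.685% and 1.2%, against 0.73% and 0.88%). IL-6, with all of its libraries, raised 1 and lowered 1 (0.171% each, against 0.0427% and 0.0643%). IL-17A and IL-22 each raised 1 (0.171%, against 0.0329% and 0.0344%) and lowered 0. Without the library labelled IL-6 replicate 4 the IL-6 count was not computed for these genes.

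The motifs of raised receptor peaks can be set beside those of all peaks raised by the same cytokine. AP-1 letters were in 14 of 23 receptor peaks raised by IL-1β (60.9%, against 56% of all raised peaks), 19 of 39 raised by TNF (48.7%, against 54.4%), 16 of 30 raised by OSM (53.3%, against 46.4%) and 9 of 15 raised by TGF-β1 (60%, against 53.9%). ISRE letters were in 4 of 10 raised by IFNγ (40%, against 44%), and NF-kB letters in 4 of 39 raised by TNF (10.3%, against 15.4%). With IL-13, STAT6 letters were in 4 of 9 (44.4%, against 26%). With TGF-β1, SMAD letters were in 9 of 15 (60%, against 44.9%). These counts are small and no test was made on them.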

How the data were processed

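Open chromatin was measured by ATAC-seq in 44 libraries of Ccd18-Co cells. Per the study's methods, the authors used the ENCODE ATAC-seq pipeline with MACS2 on hg38 and annotated peaks with ChIPseeker. How the deposited matrix itself was made is only partly stated. It holds coverage signal per peak and library, not counts, as deposited by the authors. The labels describe seeding in 48-well plates and the study's methods another plate format for ATAC-seq.

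Coverage was divided by each library's total and by a trimmed composition factor (trims of 30% on ratios and 5% on means). Values were tested as log2(coverage per Mb + 0.5) with limma 3.58.1 in R 4.3.3, all 11 groups in 1 fit, over peaks with a log2 mean above -3, at an adjusted p of 0.05. The script was tested on simulated data. Sequences and annotation are from hg38 and GENCODE 44. Tables used Python 3.11.15 and pandas 2.3.3, and figures matplotlib 3.10.9.

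Named peaks were each gene's promoter-class peak, up to 3 raised and 3 lowered receptor peaks per cytokine with the largest change and a mean of at least 1 coverage per Mb, and the largest change at a cytokine's own receptor. The raised and lowered peaks also had to have all treated libraries on one side of all unstimulated ones. The receptor genes, lists and tests were chosen with earlier results of these data known. Alternatives were other scalings, pseudocounts and filters, quality weights, the 8 libraries of a comparison alone, a replicate block and leaving out each library. Depth was 148.8 to 823.1 Mb, and limits from 3 reads assume 75-base reads and cover counting error only.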

Additional observations from a re-analysis of the deposited data

Results flagged for a closer look

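In 9 of 120 groups of 4 libraries, 1 library lay far from the other 3 by Dixon's test, which chance alone gives in about 1 of 20 groups. At start sites in unstimulated cells these were IL6R replicate 2 (19.8 coverage per Mb, the others 27.4 to 27.7), IL22RA2 replicate 3 (1.11, the others 0.358 to 0.394) and IL10RA replicate 3 (5.71, the others 6.12 to 6.18). At named peaks in unstimulated cells, replicate 1 stood apart at the IL1R1 peak 26.0 kb upstream (1.91, the others 0.288 to 0.465) and at the one 86.4 kb upstream (1.59, the others 0.887 to 0.953). Replicate 2 did so at the IL1RAP peak 27.8 kb upstream (0.349, the others 0). Replicate 4 did so at the IL10RA peak (5.13, the others 3.58 to 3.61) and at the IL4R peak 21.8 kb into the gene (10.7, the others 7.89 to 8.06). With IFNγ, replicate 3 stood apart at the IL4R peak 7.7 kb into the gene (6.49, the others 5.40 to 5.51).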

How the results depend on the processing

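Of 834 values of the 44 named changes under the alternatives, 765 kept their direction and side of the threshold, 69 lost the call (54 of them with a library left out) and 0 reversed. Of the 44, 27 were called under every alternative.

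Counts of called receptor peaks moved by over 1.5 times in these settings, and the cause was not tested. They are given without the shares over all peaks in the same settings. With the 8 libraries of a comparison alone, IL-22 called 1, IFNγ 23 and OSM 69. With quality weights IFNα called 8 and OSM 76, and IFNα called 3 with the GC correction and 10 among peaks with a log2 mean above 0. Leaving out 1 library gave 29 to 38 for IL-1β, 37 to 52 for TNF, 31 to 38 for TGF-β1, 21 to 31 for OSM, 13 to 20 for IL-13, 7 to 13 for IFNγ, 2 to 6 for IFNα, 0 to 3 for IL-6, and 0 to 0 for IL-17A and IL-22. The libraries behind the moves were TNF replicate 1 (37 without it), IL-13 replicate 2 (13), unstimulated replicates 2, 3 and 4 (3 each for IFNα), IFNα replicates 2 (3) and 3 (2), unstimulated replicate 2 (9 for IFNγ), IFNγ replicates 1 (7) and 3 (9), unstimulated replicate 3 (27 for OSM), OSM replicates 1 (21), 2 (23) and 3 (27), and IL-6 replicates 1 (3) and 2 (1).

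The peak nearest to the start site gave another baseline than the promoter-class peak for TGFBR1 (16.5), ACVRL1 (1.43), IL6R (25.6), LIFR (4.15), IL17RB (2.08), IL17RD (2.17), IL17RE (2.23), IL10RB (5.94), IFNAR1 (16.9) and IFNGR2 (2.19), since it is a different peak.

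Cytokine and unstimulated libraries of equal replicate number were close to uncorrelated, with 0 of 40 pairs above 0.1 (r from -0.013 to 0.025). Of 44 libraries, 21 correlated best with their own number, which is more than the 1 in 4 that chance gives. Whether equal numbers share a weak structure was not tested. With the replicate block, 40 receptor peaks were called for IL-1β, 59 for TNF, 39 for TGF-β1, 41 for OSM, 22 for IL-13, 14 for IFNγ, 5 for IFNα and 0 for IL-6, IL-17A and IL-22, and 0 named calls changed. At peaks where 1 group lay under 3 reads, the size of a change is not given as a fold.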
